A study of Mus musculus with 2 samples.

Results

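The C/EBP transcription factor genes examined here were Cebpa, Cebpb, Cebpd and Cebpg, 4 of 21774 protein-coding genes placed on the mouse chromosomes. Their peaks were all peaks of the deposited KMT2D list whose summit lay inside the gene or within 100 kb of it, on mm10. This gave 7 of 3738 peaks, and all 7 belonged to Cebpb. The members were chosen by the positions of called summits, with the peaks known, so the numbers of peaks and their folds are a description and were given no test. The study examined HT22 cells, an immortalised line derived from mouse hippocampus. A wild-type clone, harvested at 70% confluency, gave the ChIP library made with an antibody to KMT2D and the input library made without antibody, 1 of each. The series also describes HT22 cells whose KMT2D lacks the catalytic SET domain after CRISPR-Cas9 editing; these were not analysed here. The line is a clone without replicate libraries, so no value below has a replicate check. The peak list carries no expression data, so neither the identity of the cells nor the activity of these genes could be read from it.

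C/EBP proteins are basic leucine zipper (bZIP) transcription factors that bind DNA as dimers with each other or with other bZIP proteins. C/EBPα holds cells in a differentiated, non-dividing state in fat, liver and myeloid cells, while C/EBPβ and C/EBPδ are induced early by cytokines, hormones and cAMP. C/EBPγ lacks a strong activation domain and works largely as a dimer partner, among others of ATF4. KMT2D is a histone methyltransferase that places monomethylation on lysine 4 of histone H3 at enhancers, and C/EBP factors are among those known to bring it to enhancers during fat cell differentiation. In neurons C/EBPβ is known as a cAMP-responsive factor tied to long-term memory.

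Cebpb was the only one of the 4 genes with KMT2D peaks within 100 kb, and it had 7, while Cebpa, Cebpd and Cebpg had 0 each. Of all protein-coding genes, 35.8% had at least 1 summit in that range, so 1 of 4 members with a peak lay close to the background. At least 7 summits were found at 135 protein-coding genes, 0.62% of the total. Among genes shorter than 5 kb, such as Cebpb with its 1518 bp, 27.1% had a summit in range and 23 of 4973 (0.462%) had at least 7. The count was shared with its neighbours: Ube2v1, which encodes a ubiquitin-conjugating enzyme variant, and Tmem189, a transmembrane protein gene, also had 7 summits each within 100 kb, 4 of them the same as those of Cebpb. These were the only 3 protein-coding genes of chromosome 2 with that many.

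**Figure D1:**
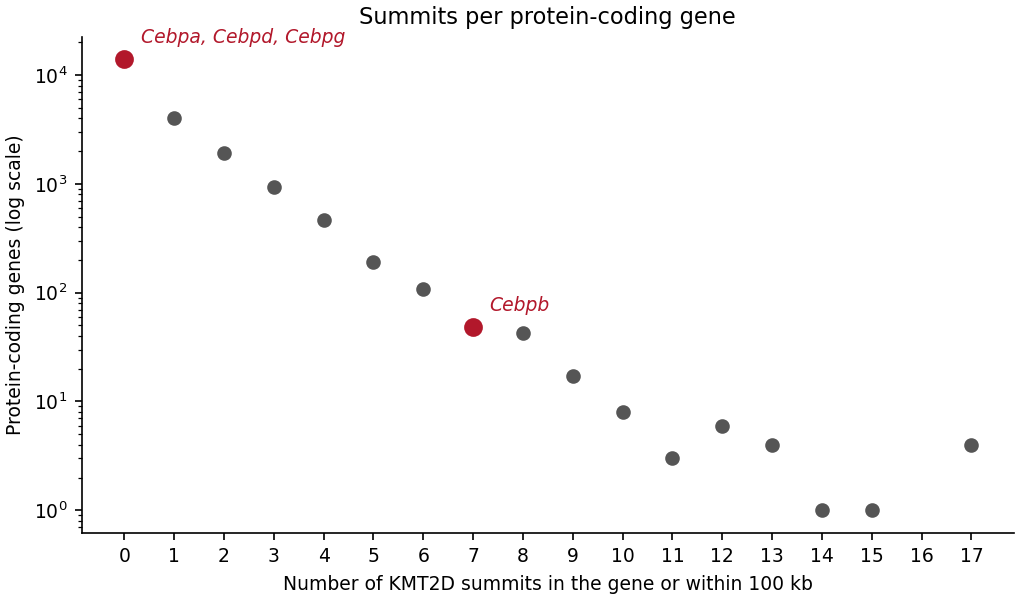
Number of protein-coding genes (vertical axis, log scale) by the number of KMT2D summits inside the gene or within 100 kb (horizontal axis). Cebpa, Cebpd and Cebpg stand among the 13971 genes with 0 summits, and Cebpb is 1 of 48 genes with 7.

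Stretches of sequence were available for the starts of annotated transcripts, and 3 of the 7 Cebpb summits fell in such windows. Each lay at the start of a long non-coding RNA (lncRNA) gene and none at the start of Cebpb. The summit at Gm31852 also lay 98 bp before the start of Ube2v1, a protein-coding gene. The stretches are shown with the Cebpb promoter because these are the places where KMT2D was and was not called. Sequences are from RefSeq on GRCm38.p6 (mm10), plus strand, 5′ to 3′. Capitals mark matches to any of 6 motifs searched on both strands: TTGCGCAA and the looser TTGCNNAA that contains it, both bound by C/EBP dimers; TGANTCA of AP-1; TGACGTCA, the cAMP response element of CREB and ATF factors; TGATGCAA of C/EBP and ATF dimers; and GGAATG of TEAD factors.
A530013C23Rik, chr2:167690509-167690808, summit at base 136: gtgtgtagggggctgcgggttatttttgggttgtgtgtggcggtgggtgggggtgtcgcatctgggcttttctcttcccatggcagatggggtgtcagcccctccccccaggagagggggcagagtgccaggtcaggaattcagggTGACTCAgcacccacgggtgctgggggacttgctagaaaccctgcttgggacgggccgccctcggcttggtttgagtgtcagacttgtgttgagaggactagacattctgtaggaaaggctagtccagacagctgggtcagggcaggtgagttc
Gm14321, chr2:167777241-167777540, summit at base 247: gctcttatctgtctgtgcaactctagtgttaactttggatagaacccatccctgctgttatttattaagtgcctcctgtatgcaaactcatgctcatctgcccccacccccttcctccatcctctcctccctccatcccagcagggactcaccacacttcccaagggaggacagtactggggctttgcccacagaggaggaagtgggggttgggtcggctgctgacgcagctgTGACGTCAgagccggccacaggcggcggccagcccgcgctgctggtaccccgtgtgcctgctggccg
Gm31852, chr2:167632021-167632143, summit at base 83: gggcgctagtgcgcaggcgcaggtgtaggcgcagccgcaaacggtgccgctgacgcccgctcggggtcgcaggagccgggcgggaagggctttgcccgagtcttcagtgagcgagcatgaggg
Cebpb, chr2:167688665-167688914, no summit: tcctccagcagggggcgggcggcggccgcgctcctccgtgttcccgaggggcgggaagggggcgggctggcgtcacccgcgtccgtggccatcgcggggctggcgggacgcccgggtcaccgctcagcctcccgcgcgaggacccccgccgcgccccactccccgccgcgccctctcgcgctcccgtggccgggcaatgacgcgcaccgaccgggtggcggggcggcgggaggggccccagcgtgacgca

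At Gm14321 the match to TGACGTCA was centred 9.5 bp before the summit, and at A530013C23Rik the match to TGANTCA was centred 14 bp after it. The Gm14321 summit also fell in the window at the start of Gm32287, not printed here. That window held the same TGACGTCA and a match to TGANTCA centred 170 bp after the summit. Of 32851 windows of 300 bp around transcript starts, 1.79% held TGACGTCA and 7.81% held TGANTCA. Among the 417 windows with a KMT2D summit the shares were 4.32% and 11.0%, with no test made. These sets of windows were not matched for CpG content, and TGACGTCA itself holds a CpG. The stretch at Gm31852 and the Cebpb promoter, printed over 123 and 250 bp, shorter than these windows, held none of the 6 motifs. Of the others, TTGCNNAA was in 10.8% of all windows and 7.43% of those with a summit, and GGAATG in 14.7% and 10.8%. TTGCGCAA was in 0.183% and 0.240%, and TGATGCAA in 0.895% and 1.20%. A match describes letters in these windows and does not show that a factor was bound.

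The 7 Cebpb peaks spanned 157.5 kb of chromosome 2, with 1 summit before the start of the gene and 6 after it. Fold, given for each peak by the authors' peak caller, is the ChIP signal at the summit over a background taken from the input. Intervals are exact 95% Poisson intervals of the ChIP fragments with the background held fixed, and cover counting error only. Cebpb lies at chr2:167688915-167690432 on the plus strand.

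The peaks nearest to Cebpb lay inside the gene and just beyond its end, not before its start. The only summit inside the gene, a short gene without introns, lay 722 bp after the start, in a peak at chr2:167689637-167689960. It had a fold of 2.496 (interval 1.60 to 3.72), from 22 ChIP fragments over a background of 8.22. This was the weakest of the 7, with a −log10 q of 1.52 where the lowest in the whole list was 1.32, and its summit was the first base of its interval. At that background, 22 fragments were the fewest that reach the lowest −log10 p of the list, so this peak stood at the limit of what was called.

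The second lay 212 bp beyond the end of Cebpb, in a peak at chr2:167690578-167690789, 115 bp before the start of the lncRNA gene A530013C23Rik. Its fold was 4.29 (2.76 to 6.40), from 22 fragments over a background of 4.36. The fragments at these neighbouring summits were equal in number, and the lower fold inside Cebpb went with a higher background. With both summits within 2 kb of its ends, Cebpb was 1 of 78 protein-coding genes (0.358%) with at least 2 there, where 5.08% had at least 1.

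The strongest Cebpb peaks lay far downstream. The highest fold, 5.87 (4.36 to 7.74), was 74.97 kb beyond the end of the gene, at chr2:167765199-167765578, with 48 fragments over a background of 7.35. No annotated start was close to it: the nearest gene of any class, the lncRNA gene Gm32287, was 3710 bp away. The next, with a fold of 5.68 (4.16 to 7.59) and 44 fragments over 6.92, was 87.1 kb beyond Cebpb at chr2:167777304-167777983. It was the widest of the 7 at 680 bp, and its summit fell 4 bp before the start of Gm14321 and inside Gm32287, a lncRNA gene on the opposite strand that overlaps that start. The farthest, 99.2 kb beyond the gene at chr2:167789460-167789878, had a fold of 3.43 (2.52 to 4.58), from 44 fragments over a background of 12.1, and lay 246 bp inside the start of the lncRNA gene Gm32513.

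The remaining peaks were of middling strength. One stood 23.2 kb beyond Cebpb at chr2:167713572-167713774, with a fold of 4.44 (2.83 to 6.69) and 21 fragments over 3.95, and its nearest gene was 11563 bp away. The only one before the gene stood 56.8 kb from its start at chr2:167631917-167632335, with a fold of 3.72 (2.34 to 5.64) and 20 fragments over 4.65. That summit was 9 bp inside Gm31852, on the plus strand, and 98 bp before the start of Ube2v1, on the minus strand.

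**Figure D2:**
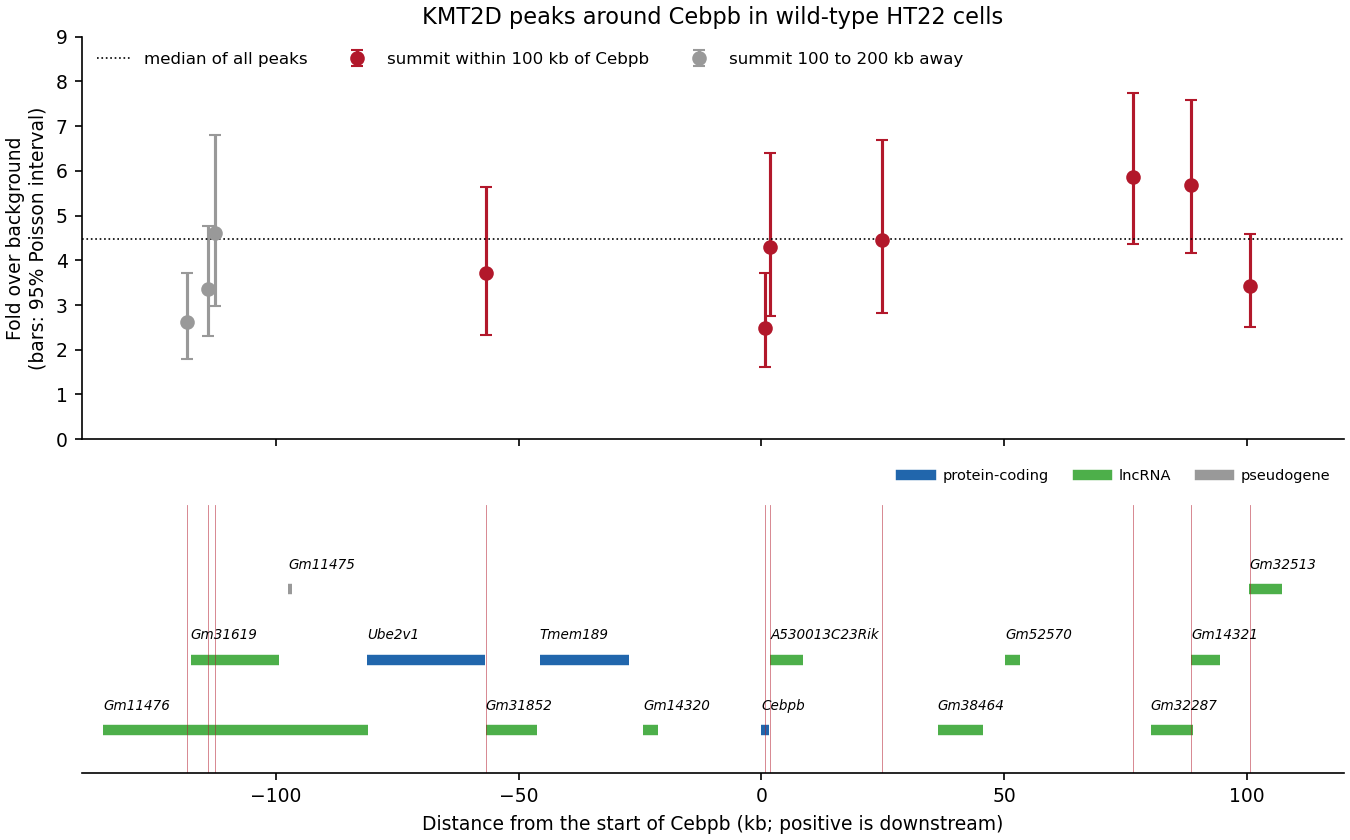
Upper panel, fold over background (vertical axis) of each KMT2D peak against its distance from the start of Cebpb (horizontal axis, kb), with 95% Poisson intervals; lower panel, the annotated genes at the same scale. The 2 highest folds, 5.87 and 5.68, stand over 70 kb downstream, and the 3 grey points are peaks just beyond 100 kb upstream.

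In fragments the 7 peaks fell into 2 sets. The 3 peaks over 50 kb downstream had 44 to 48 ChIP fragments, and the other 4 had 20 to 22, where the median of the whole list was 30. Their folds did not follow the same split, since backgrounds ran from 3.95 to 12.1. Of 21 pairs among the 7, the fold intervals were apart in 2, those of the 2 highest peaks against the one inside Cebpb. In the other pairs the intervals overlapped, which alone does not settle their order, and no test was made. Against the list, 2 of 7 had a fold above the median of 4.47 and 3 of 7 a −log10 q above the median of 8.21. Their median fold was 4.29, and the highest fold was above 76.3% of the list or level with it.

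**Figure D3:**
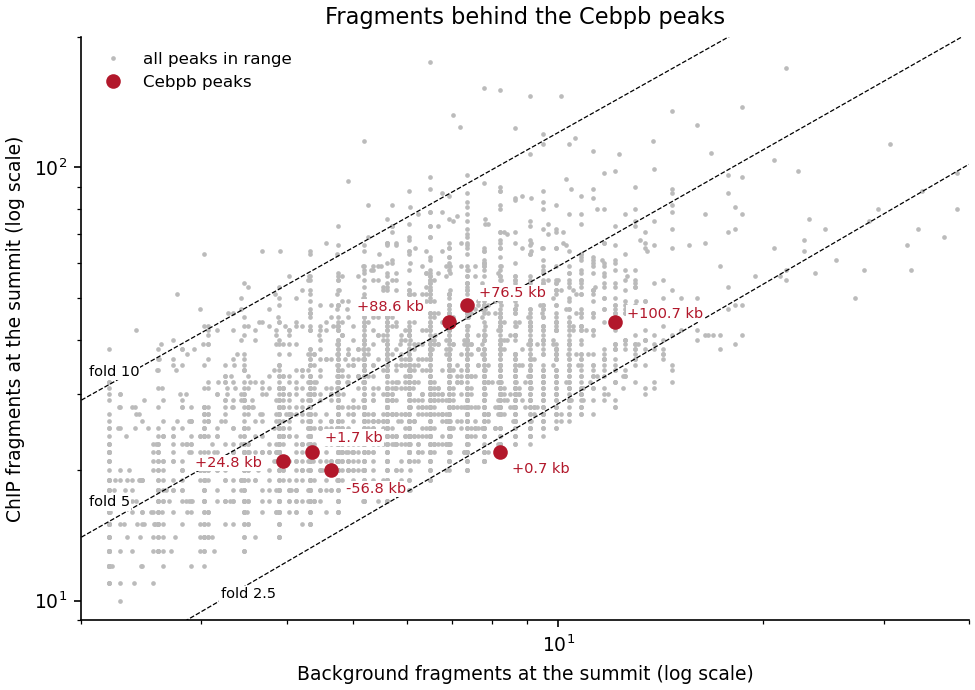
ChIP fragments at the summit (vertical axis, log scale) against background fragments (horizontal axis, log scale) for peaks of the list in the plotted range (grey) and the 7 Cebpb peaks (red, labelled by distance from the start of Cebpb); dashed lines join equal folds. The 3 far downstream peaks have 44 to 48 fragments and the other 4 have 20 to 22.

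LncRNA starts recurred among the Cebpb peaks. Of the 7 summits, 4 lay within 500 bp of the start of a lncRNA gene (Gm31852, A530013C23Rik, Gm14321 and Gm32513), where 4.32% of all peaks in the list did. Within 500 bp of a protein-coding start lay 1 of 7, the one shared with Ube2v1, near the 16.4% of all peaks that did. The list was not tested for this, and the 7 summits share 1 region dense in annotated lncRNA genes. With lncRNA genes counted, Cebpb was the nearest gene for 1 summit of 7; among protein-coding genes it was the nearest for 6 of 7. Only 18 protein-coding genes (0.0827%) were nearest to 6 or more summits.

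On either side of the 100 kb limit, the summit 99182 bp beyond the gene was the last inside, with its fold of 3.43 and 44 fragments. The first outside lay 112628 bp before the start, with a fold of 4.604 (2.99 to 6.81), within the lncRNA gene Gm11476. A further 2 summits in that gene, 113970 and 118436 bp before Cebpb, had folds of 3.36 (2.31 to 4.76) and 2.63 (1.80 to 3.71). These 3 had 23 to 30 fragments and lay 13194 to 17167 bp from the nearest annotated start, unlike the last one inside. On the downstream side the next summit was 382.5 kb away. Within the 7, neighbouring summits were 1.007 to 57.5 kb apart, in a range that the 100 kb limit bounds.

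The genes most like Cebpb by number of summits and highest fold, out of 45 others with 7 summits and none of its peaks, were Tut1 (highest fold 5.81), a terminal uridylyltransferase gene, and Epha2 (5.73), an ephrin receptor gene. They differed from Cebpb by -0.01 and -0.03 in log2 highest fold. Gpx4, which encodes a lipid peroxide reducing enzyme, was level for the next place with a highest fold of 6.30. The likeness rests on 1 ChIP library.

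Cebpa and Cebpg, 62.7 kb apart on chromosome 7, lay in the same stretch without peaks. Cebpa spans chr7:35119293-35121928 on the plus strand and Cebpg chr7:35046422-35056566 on the minus strand. No summit was called over 901.1 kb around both, a stretch that holds 14 protein-coding genes; 18.7% of the spacings between neighbouring summits in the list were at least as wide. The nearest summit to Cebpg, at 391.9 kb, lay inside Kctd15, 79 bp before an annotated transcript start of that gene. It had a fold of 4.003 (2.31 to 6.54) from 14 fragments. The nearest to Cebpa, at 433.6 kb, lay 364 bp inside the start of Nudt19, with a fold of 2.64 (1.80 to 3.75) from 29 fragments. Of all protein-coding genes, 35.5% were farther from a summit than Cebpg and 33.4% farther than Cebpa, so neither stood apart.

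Cebpd, at chr16:15887286-15889545, lay in a wider gap. Its nearest summit was 635.5 kb away, with a fold of 7.20 (4.63 to 10.7) from 22 fragments over a background of 2.19. That background was the lowest value in the list and recurred at many other peaks. The summit lay 282.8 kb from the nearest protein-coding gene, Efcab1. On the other side the next summit was 1920 kb from Cebpd. The stretch of 2558 kb between them held 43 protein-coding genes, and 6.89% of spacings in the list were at least as wide. Of all protein-coding genes 25.2% were farther from a summit than Cebpd.

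An absent peak means that no summit reached the threshold of the list. At the median background of 6.05 fragments, 18 ChIP fragments, a fold of 2.69, were needed to reach the lowest −log10 p that the list holds, and at a background of 4.32 it took 15, a fold of 3.01. Weaker KMT2D signal at Cebpa, Cebpd or Cebpg was not detectable at this depth, and the background at these genes was not read because the list holds peaks only.

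Promoter composition was examined because it was not used to choose the genes. Windows from 250 bp before to 50 bp after the start were found for Cebpa, Cebpb and Cebpg, 3 of the 4. All 3 were rich in CpG: Cebpb held 50 CpG in 300 bp with an observed to expected ratio of 1.03, Cebpg 38 with 0.988, and Cebpa 29 with 0.853. These ratios exceeded those of 93.7%, 91.1% and 77.8% of 17492 protein-coding promoters. No summit fell in any of the 3 windows. Of all protein-coding promoters 1.63% held a summit, and of those with a ratio of at least 0.6 the share was 2.98%, so 0 of 3 is uninformative. The lncRNA windows with a summit at A530013C23Rik and Gm14321 had 7 and 10 CpG and ratios of 0.283 and 0.381. The window of Gm32287, which holds the same summit as that of Gm14321, had 16 and 0.481. The one at Gm31852 had 33 and 0.851, and its summit also fell in the Ube2v1 promoter window.

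Other genes of the C/EBP network were counted by the same 100 kb rule, as descriptions of this library. Of 12 C/EBP relatives and bZIP partners, 8 had a summit (35.8% of all protein-coding genes did), and the median distance to the nearest summit was 17.6 kb, against 201.3 kb for all protein-coding genes. Cebpe, the fifth C/EBP gene here and a factor of granulocyte maturation, had none; its nearest summit was 134.5 kb away, inside Ajuba. Ddit3, which encodes the stress-induced dimer partner CHOP, had summits 272 and 1550 bp from the gene with folds of 5.21 (3.86 to 6.89) and 8.51 (6.32 to 11.2), both inside the neighbouring Mbd6. Atf4, a stress-response factor and C/EBP partner, had 5 summits. The one inside Atf4 had a fold of 2.29 (1.56 to 3.25), and the strongest, with 9.72 (7.69 to 12.1), lay 35.7 kb away and nearer to Mgat3. Atf3, another stress-induced factor, had 2 summits over 70 kb away with a highest fold of 6.70. Tef, a clock-controlled PAR bZIP factor, had 3 summits. The highest, 6.49, lay 33.2 kb away and nearer to Tob2, and the one inside Tef had 3.87. Atf2, Creb1 and Batf had none.

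Of 15 genes upstream of C/EBP expression, which encode receptors, kinases and factors of cytokine and stress signalling, 10 had a summit, with a median nearest distance of 33.2 kb (35.8% and 201.3 kb over all protein-coding genes). Stat3, the factor that carries IL-6 signals to Cebpb and Cebpd, had 1 summit, 22.9 kb away and inside Cavin1, with a fold of 6.95 (5.11 to 9.25). Rps6ka1, a kinase gene, had a highest fold of 6.27 at a summit 33.2 kb away inside Gm34296. Smad3, a TGF-β effector, had 5.66 inside the gene. The highest for Rela, an NF-κB subunit, was 5.49, 76.6 kb away inside Ehbp1l1. Of 11 regulators of C/EBP proteins 5 had a summit (45.5%, near the 35.8% of all protein-coding genes), with a median distance of 148.7 kb against 201.3 kb. Trib1, which directs C/EBPα to degradation, had a summit 150 bp from the gene with a fold of 4.22 (3.43 to 5.13). Cdk4, a cell cycle kinase, had 4 summits, of which the one 149 bp away had a fold of 2.79 and the highest, nearer to Agap2, 6.13. Celf1, an RNA-binding regulator of Cebpb translation, had a single summit 50.9 kb away inside Slc39a13 with a fold of 5.91. For Trib3, a pseudokinase gene, the highest fold was 4.19, at a summit 54.1 kb away and nearer to Sox12. A summit 5.98 kb from Trib3 had 4.12.

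**Figure D4:**
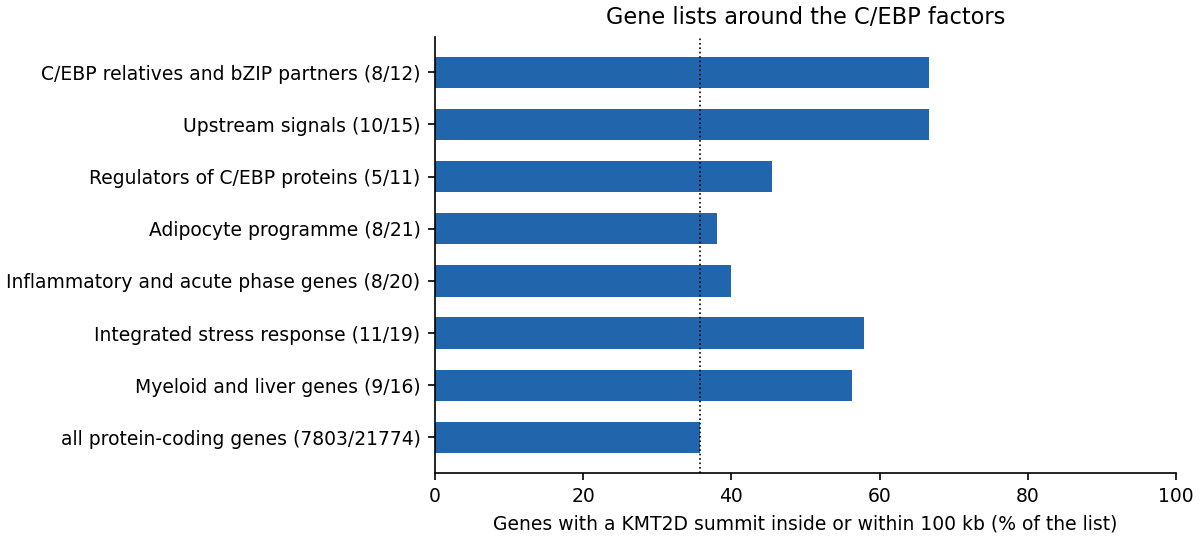
Share of genes with a KMT2D summit inside or within 100 kb (horizontal axis, %) for 7 gene lists and for all protein-coding genes, with counts beside each name; the dotted line marks the 35.8% of all protein-coding genes. The lists run from 38.1% to 66.7%, neighbouring genes in a list can share a peak, and some genes stand in several lists.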

How the data were processed

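KMT2D ChIP and input libraries of wild-type HT22 cells were joined by the authors in 1 list of peaks. The submitters' processing notes name mm10 as the build and list Bowtie2, Picard and MACS2, with no versions or settings. For each peak the deposited list holds a fold, which is the ratio of ChIP signal to background, a −log10 p-value, a −log10 q-value and a score that was left aside. Positions are counted from 1.

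ChIP fragments and background were solved from fold and −log10 p, taking fold as (fragments + 1) over (background + 1) and p as a Poisson tail. The solution met the deposited −log10 p within 0.001 for 3694 of 3738 peaks (98.8%), among them all 7 Cebpb peaks. Gene positions are from a RefSeq table of GRCm38.p6, the build of mm10; of 49997 genes, 49595 on the main sequence of a chromosome were kept, 21774 of them protein-coding. Strand and transcript starts are from the RefSeq promoter windows. Distances run from the summit to the gene, 0 inside. The procedures were tested on simulated data with known answers. Python 3.11.15, NumPy 2.4.6, pandas 2.3.3 and SciPy 1.17.1 were used. Alternatives were windows of 50 kb and 20 kb, whole peak intervals, 2 stricter peak thresholds and assignment to the nearest protein-coding gene.

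The members and lists were chosen with earlier results of these data known. Named were the 4 genes with every peak in range, the genes most like Cebpb by number of summits and highest fold, and, per list, the 4 genes or fewer with the strongest peak by fold; others named with them, such as members near a summit or without one, were chosen after their values were seen. A few genes taken by it are left out.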

Additional observations from a re-analysis of the deposited data

How the results depend on the processing

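Cebpa, Cebpd and Cebpg had 0 peaks under all 6 alternatives, which by construction could add few peaks or none, so this says nothing about stability; their nearest summits were 433.6, 635.5 and 391.9 kb away. Cebpb, and with it the total over the 4 genes, kept 7 peaks with whole peak intervals in place of summits and 6 when each peak counted only for its nearest protein-coding gene. The count moved with the window, to 3 within 50 kb and 2 within 20 kb, and with the peak threshold, to 3 when only the upper part of the list by −log10 q, from its median on, was kept, and to 1 when peaks needed a fold at the list's 75th percentile or higher. The share of all protein-coding genes with a peak moved with these settings too, from 35.8% to 24.9% within 50 kb, 15.7% within 20 kb, 21.3% at the stricter −log10 q, 12.2% at the stricter fold and 11.0% by nearest gene. The share with at least as many peaks as Cebpb was 3.55% within 50 kb, 4.32% within 20 kb, 2.99% at the stricter −log10 q, 12.2% at the stricter fold and 0.0827% by nearest gene, against 0.62%. Fewer peaks or a smaller window enter by construction. A highest fold could not be given for the 3 genes without peaks. No paired analysis was possible because there was 1 ChIP and 1 input library and no test between groups.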

Other observations

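The programmes that C/EBP factors are known to drive were counted in the same way. Of 21 genes of the adipocyte programme, 8 had a KMT2D summit inside or within 100 kb (38.1%, near the 35.8% of all protein-coding genes). The median distance to the nearest summit was 113.7 kb against 201.3 kb. Pparg, the master regulator of fat cell differentiation, which C/EBPβ and C/EBPδ induce, had 3 summits. One was inside the gene with a fold of 5.44 (95% Poisson interval 3.56 to 7.98), one 3180 bp from it with 4.96 (3.48 to 6.88), and one 43.9 kb away with 6.55 (4.49 to 9.27). The last lay inside the lncRNA gene Gm38877, and its nearest protein-coding gene was Syn2. Ebf1, an early adipocyte and B cell factor, had 2 summits inside the gene with folds of 4.95 and 3.87. The summit counted for Stat5a, with a fold of 6.95, was the one in Cavin1 that also counted for Stat3, and the highest for Cidec, a lipid droplet protein gene, was inside Il17rc (5.56).

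Of 20 inflammatory and acute phase genes, 8 had a summit (40%, near the 35.8% of all protein-coding genes), with a median distance of 170.6 kb. Socs3, the feedback inhibitor of IL-6 signalling, had 8 summits, and it was the nearest protein-coding gene for all 8; folds ran from 2.85 to 7.02. Cxcl1 and Cxcl2, neighbouring chemokine genes, shared 2 summits with folds of 8.34 (6.04 to 11.2) and 4.54 (3.17 to 6.32), 14.5 and 9.406 kb from Cxcl1. Csf3, a granulocyte growth factor gene, had 9 summits in range, and another protein-coding gene was nearer to each. Of 19 genes of the integrated stress response, 11 had a summit (57.9%, where 35.8% of all protein-coding genes did). The median distance was 74.4 kb, against 201.3 kb for all protein-coding genes. This list overlaps those above: Atf4, Ddit3 and Atf3 were also counted as bZIP partners, and Trib3 as a regulator of C/EBP proteins. Ddit4, an mTORC1 inhibitor gene, had the highest fold, 10.3 (7.99 to 13.0), 39.97 kb away. That summit lay inside the lncRNA gene Gm40673 and nearer to Dnajb12. A summit 314 bp from Ddit4 had a fold of 2.23. For Ppp1r15a, which encodes a phosphatase subunit that ends the response, the only summit was 61.8 kb away and nearer to Bax (7.71). Of 16 myeloid and liver genes, 9 had a summit (56.2%), with a median distance of 94.9 kb, and 0 had one within 2 kb of an end. Of all protein-coding genes 5.08% did, so 0 of 16 is uninformative. Higher folds than those that follow occurred at members of this list not reported here. The summit counted for Irf8, a myeloid factor, was 91.4 kb away and inside Gm27021 (6.40), and the strongest for Elane, a neutrophil elastase gene, was 21.0 kb away and 318 bp from Med16 (6.22). These lists were chosen with results of these data known, and no test was made of them.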
